A study of Mus musculus with 14 samples.

Results

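The proteasome genes of mouse liver were measured here as 47 of the 22180 genes that the array names. They were chosen by symbol: every gene with a probe set of its own whose symbol starts with Psma, Psmb, Psmc, Psmd, Psme, Psmf or Psmg followed by a number was taken, Psmb8 and Psmb9 were left out, and a gene with several probe sets was taken at the brightest. By role the 47 genes comprised 7 of the α ring, 7 of the β ring, 2 inducible or tissue-restricted β subunits, 6 ATPases and 11 other subunits of the regulatory particle, 7 assembly chaperones, and 5 activators and inhibitors. The last 2, Psmc3ip and Psme3ip1, carry such names without encoding a subunit. Psma4 was not among them because its probe sets are shared with another symbol.

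All mice were male C57Bl/6J animals that started a 60% high-fat diet (HFD) at 6 weeks of age, ate it freely for 4 weeks to become obese, and were then followed for 4 more weeks in 3 arms. Mice of the canagliflozin arm stayed on the diet and received the drug, labelled 30 mg/kg (n = 5 arrays). Canagliflozin inhibits SGLT2, the transporter that reclaims glucose from the urine. In the caloric restriction arm, also labelled HFD, food was cut by 15 to 30% so that weight matched that of the drug-treated mice (n = 5), and HFD control mice continued the diet (n = 4). No arm ate a lean diet, so obesity itself has no comparison here. Each array was taken as 1 mouse, although no label ties arrays to animals. The p-values then set group differences against the spread between arrays within groups.

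The proteasome degrades proteins tagged with ubiquitin. Its barrel-shaped core is made of α rings, which gate the entrance, and β rings, of which Psmb5, Psmb6 and Psmb7 carry the active sites. A regulatory particle caps the barrel: its Psmc ATPases unfold the substrate and thread it inside, and its Psmd subunits bind ubiquitin chains and cut them off. Dedicated chaperones assemble both parts, and Psme proteins form alternative caps. In cells with impaired proteasomes, the transcription factor NRF1, encoded by Nfe2l1, raises the subunit genes together through antioxidant response elements in their promoters. In liver, the proteasome also disposes of misfolded proteins that are returned from the endoplasmic reticulum.

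Because this gene group is known for joint transcription, promoters of members are shown first. RefSeq start sites in build GRCm38.p6 were given for 39 of the 47 genes, in 43 windows of the 250 bases before a start. The core of the antioxidant response element was searched as TGACNNNGC, a binding element of ETS factors as CCGGAAG, and the CCAAT box as CCAAT, each on both strands. The first was found in 11.6% of the members' windows and 10.2% of all 32851 promoter windows, the second in 32.6% and 6.91%, and the third in 34.9% and 33.8%. The median GC content was 57.6% in the members' windows and 52.4% in all. The antioxidant core lay within 60 bases of the start in 3 genes, Psmd9, which had the smallest p of the group in the drug arm, and the catalytic Psmb5 and Psmb6. Their last 60 bases before the start read as follows, 5′ to 3′ along the gene, with the match in capitals. They lie at chr5:123228130-123228189 (plus strand), chr14:54617996-54618055 (minus) and chr11:70525297-70525356 (plus).
Psmd9: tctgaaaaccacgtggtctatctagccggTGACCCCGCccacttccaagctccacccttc
Psmb5: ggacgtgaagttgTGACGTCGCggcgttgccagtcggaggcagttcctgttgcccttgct
Psmb6: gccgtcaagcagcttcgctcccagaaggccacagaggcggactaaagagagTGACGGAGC

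The ETS element was found in 13 of the 39 genes and in 8 within 60 bases of a start. The 5 shown here were picked from genes of the regulatory particle. Psmd6, of the same particle, also has it there, as CCGGAAG 39 to 45 bases before the start, and is not shown. Each of the 5 shown holds the element on the opposite strand, as CTTCCGG in capitals, 5 to 28 bases before the start. That shared strand thus reflects which genes were picked. Their windows are chr12:100110142-100110201, chr5:21786687-21786746, chr16:20651592-20651651, chr11:80428555-80428614 and chr11:107479468-107479527, all on the plus strand. A match of letters is a description of the sequence and does not show that a factor binds there.
Psmc1: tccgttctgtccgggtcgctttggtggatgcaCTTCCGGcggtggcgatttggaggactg
Psmc2: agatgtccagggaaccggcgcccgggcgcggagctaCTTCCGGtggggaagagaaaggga
Psmd2: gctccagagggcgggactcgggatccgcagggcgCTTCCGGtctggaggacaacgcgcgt
Psmd11: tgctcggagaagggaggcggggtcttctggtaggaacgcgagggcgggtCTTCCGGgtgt
Psmd12: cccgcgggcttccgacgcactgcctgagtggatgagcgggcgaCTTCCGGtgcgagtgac

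Values are log2 probe set values after RMA, which equalises the arrays, so 1 unit is a doubling and a change in total RNA would not be seen. Array medians lay between 4.07 and 4.13, and arrays correlated between 0.971 and 0.985 over all probe sets. The number of arrays limits the precision. The tissue was liver by its markers: 9 hepatocyte genes had gene means of 9.60 or higher, and the list's mean per array ranged from 12.43 to 12.51 under canagliflozin, 12.47 to 12.54 under caloric restriction and 12.47 to 12.51 in HFD controls. The macrophage list (10 genes) ranged from 6.77 to 7.29, 6.35 to 7.11 and 6.45 to 7.32 in the same order. The lymphocyte list (9 genes) ranged from 4.10 to 4.23, 3.94 to 4.35 and 4.11 to 4.19, and 7 of its genes, including Cd3e, Cd4, Cd8a and Cd79a, had means under 5. In whole tissue, fewer cells of a type and less RNA per cell cannot be told apart. Among the 47 genes, Psma5, Psma8, Psmb11, Psmc3ip and Psmg4 had means under 5, close to the array medians, and whether they exceeded background could not be judged from the values used here.

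Canagliflozin left the proteasome genes close to their HFD control levels. Of the 47 genes, 25 had higher means under the drug and 22 lower ones (53.2% higher, against 49.7% of all genes), and the median difference was 0.00 on the log2 scale, as it was over all 22180 genes. In 30 of the 47 the difference was under 0.1 log2 units, as it was in 12219 of all 22180 genes. The largest differences were 0.40 ± 0.11 (log2, SE) for Psmd9, an assembly chaperone, which is 1.32-fold, and lower values of the assembly chaperone Psmg2 (-0.29 ± 0.10) and the β subunit Psmb3 (-0.29 ± 0.10). None of the 47 genes passed an adjusted p of 0.05 in limma, nor did any of all 22180 (0%). The smallest adjusted p among the members was 0.559. With an unadjusted p under 0.05 there were 3 members (6.38%), which is close to the 6.51% of all genes. The 95% interval of the difference lay within 1.5-fold in both directions for 45 of the 47 genes, against 92% of all genes. The exceptions were Psmd9 (0.17 to 0.62) and Psmg1 (-0.68 to 0.37), an assembly chaperone that varied widely within every group. The groups did not overlap in 1 member, Psmg2, which was lower in all 5 drug-treated mice than in all 4 controls. Among all genes 0.965% separated in that direction and 0.987% in the higher direction.

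Caloric restriction to a matched weight likewise left the members near the levels of the same controls. Here 21 of the 47 genes had higher means and 26 lower ones (44.7% higher, against 50.5% of all genes), with a median difference of -0.01. The members with the smallest p were Psmd9 (0.22 ± 0.11) and Psmg2 (-0.20 ± 0.10), but both comparisons share the 4 control arrays. No member passed in limma (0% of all genes did), the smallest adjusted p among members was 0.999, and 0 members had an unadjusted p under 0.05, against 3.93% of all genes. For 46 of the 47 genes the 95% interval lay within 1.5-fold either way (93.9% of all genes). The exception was Psmg1 (-0.85 to 0.20), whose difference of -0.33 ± 0.25 was also the largest in size. The groups did not overlap in 1 member, the catalytic subunit Psmb6, which was higher in all 5 restricted mice. Among all genes 0.703% separated upwards and 0.694% downwards.

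Set directly against each other, the drug and the weight-matched arm differed little in these genes. Of the 47, 26 had higher means under canagliflozin (55.3%, against 49% of all genes), and the median difference was 0.02. The ATPase gene Psmc5 had the smallest p and the largest difference, 0.21 ± 0.09, and its adjusted p was 0.807. It was the 1 member with an unadjusted p under 0.05 (2.13%, against 6.05% of all genes). No member passed in limma. The 1 gene of the whole array that did (0.00451%) was Rtkn, which is not a proteasome gene. No member separated the groups without overlap, against 0.437% of all genes in the higher and 0.491% in the lower direction. In 46 of the 47 genes the 95% interval lay within 1.5-fold either way (93.9% of all genes), Psmg1 being the exception (-0.32 to 0.67).

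**Figure D1:**
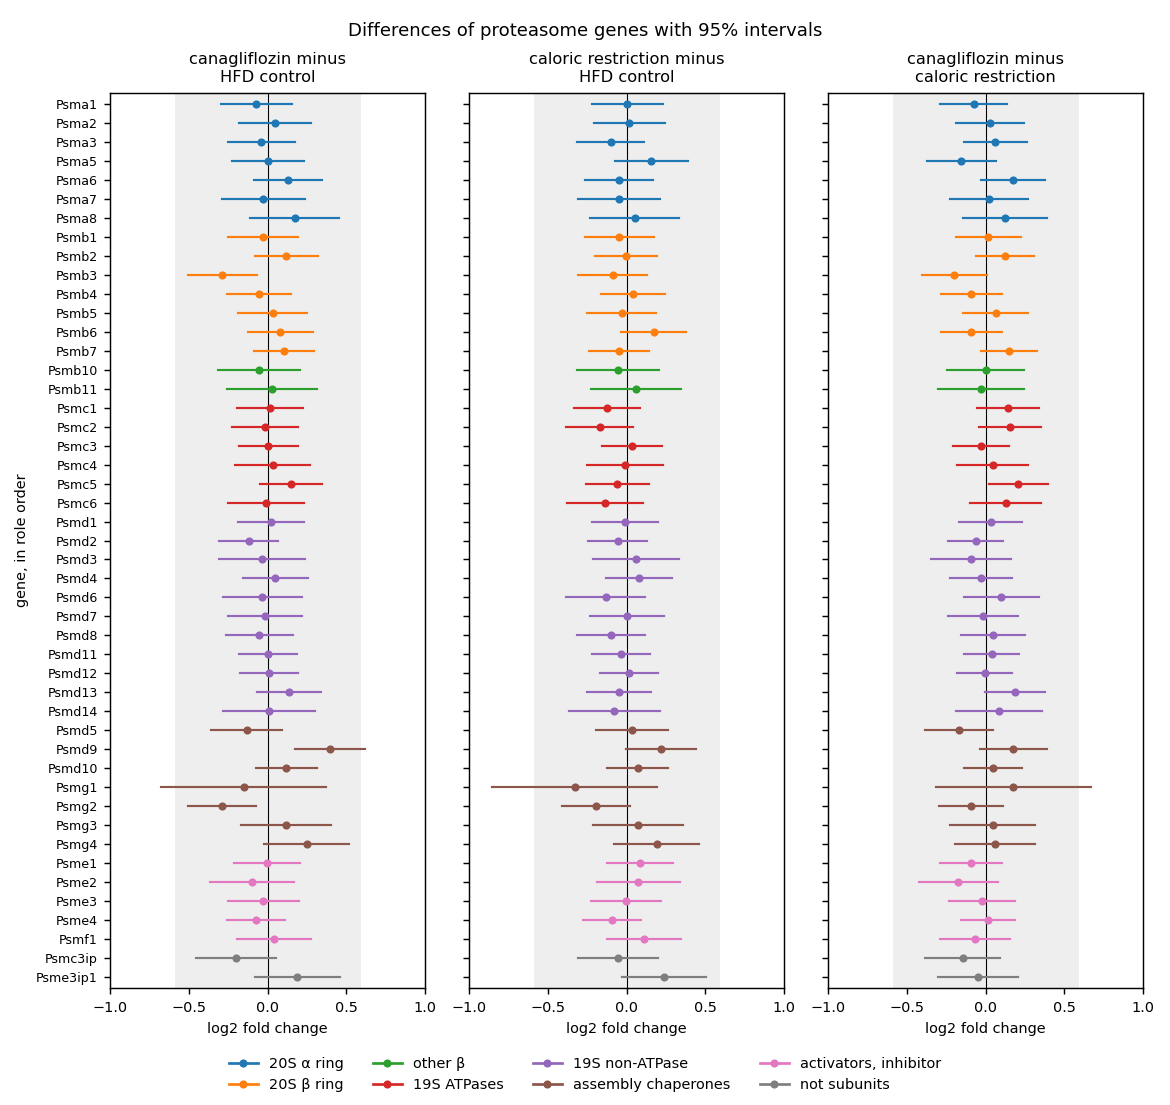
Log2 fold changes of the 47 proteasome genes (points) with 95% intervals (bars) from limma in the 3 comparisons, genes in role order from top to bottom, with the range of 1.5-fold either way shaded. Most bars cross 0 and stay within the shading, and Psmd9 and Psmg1 leave it in the panel for canagliflozin against HFD control.

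The β ring holds the active sites. Of its 7 genes, 4 had higher means under the drug and 2 under restriction (49.7% and 50.5% of all genes did). In the drug comparison 1 of the 7, Psmb3, had an unadjusted p under 0.05, as did 6.51% of all genes. Psmb5, which encodes the subunit with chymotrypsin-like activity, measured 7.47, 7.49, 7.57, 7.35 and 7.34 under canagliflozin, 7.42, 7.31, 7.46, 7.38 and 7.34 under caloric restriction and 7.69, 7.40, 7.45 and 7.11 in HFD controls. The control arrays spread over the widest range, and both other groups lay inside it. It differed by 0.03 ± 0.10 under canagliflozin and by -0.03 ± 0.10 under restriction against controls, with intervals of -0.19 to 0.25 and -0.25 to 0.19. Psmb7, with trypsin-like activity, measured 9.14, 9.08, 9.05, 8.88 and 8.98 under canagliflozin, 8.83, 8.92, 8.96, 8.75 and 8.92 under caloric restriction and 8.99, 9.04, 8.93 and 8.74 in HFD controls. Canagliflozin arrays were on average the highest, above every restricted array in 4 of 5 mice, and overlapped the controls (0.15 ± 0.09 against restriction, limma adjusted p = 0.836). Psmb6, the caspase-like subunit, measured 8.44, 7.95, 8.40, 8.22 and 8.20 under canagliflozin, 8.32, 8.32, 8.30, 8.35 and 8.37 under caloric restriction and 8.09, 8.27, 8.07 and 8.21 in HFD controls. The restricted mice were tightly grouped and lay above all controls, while the drug-treated mice spanned both. Restriction differed from control by 0.17 ± 0.10 (limma adjusted p = 0.999), and canagliflozin by 0.08 ± 0.10.

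Psmb3, a structural β subunit without an active site, was the β gene with the smallest p for the drug. Its values were 5.26, 5.27, 5.06, 5.18 and 5.40 under canagliflozin, 5.49, 5.45, 5.14, 5.57 and 5.50 under caloric restriction and 5.65, 5.59, 5.35 and 5.48 in HFD controls. In 4 of 5 drug-treated mice it lay below all controls, and replicate 5 overlapped the lowest control. The means were 5.23 ± 0.12 under canagliflozin (SD, n = 5), 5.43 ± 0.17 under restriction (n = 5) and 5.52 ± 0.13 in controls (n = 4), so the drug arm was 1.22-fold lower than control (limma adjusted p = 0.669). The remaining β ring genes Psmb1, Psmb2 and Psmb4 differed by -0.03 ± 0.11, 0.12 ± 0.09 and -0.05 ± 0.10 under the drug and by -0.05 ± 0.11, 0.00 ± 0.09 and 0.04 ± 0.10 under restriction, against HFD controls.

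Psmb10 encodes the β subunit that replaces that of Psmb7 in immunoproteasomes, the form induced by interferon γ. It measured 7.44, 7.84, 7.69, 7.31 and 7.58 under canagliflozin, 7.52, 7.60, 7.72, 7.57 and 7.45 under caloric restriction and 7.90, 7.76, 7.38 and 7.47 in HFD controls. All 3 groups overlapped, and the highest and lowest values came from a control and a drug-treated mouse. It differed by -0.06 ± 0.12 and -0.06 ± 0.12 against controls and by 0.00 ± 0.12 between the treated arms. Psmb11, the thymus-restricted subunit, had dim values of 3.45, 3.60, 3.73, 3.17 and 3.46 under canagliflozin, 3.76, 3.49, 3.30, 3.5 and 3.52 under caloric restriction and 3.20, 3.59, 3.22 and 3.79 in HFD controls. These groups overlapped fully, with a difference of -0.03 ± 0.13 between drug and restriction.

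**Figure D2:**
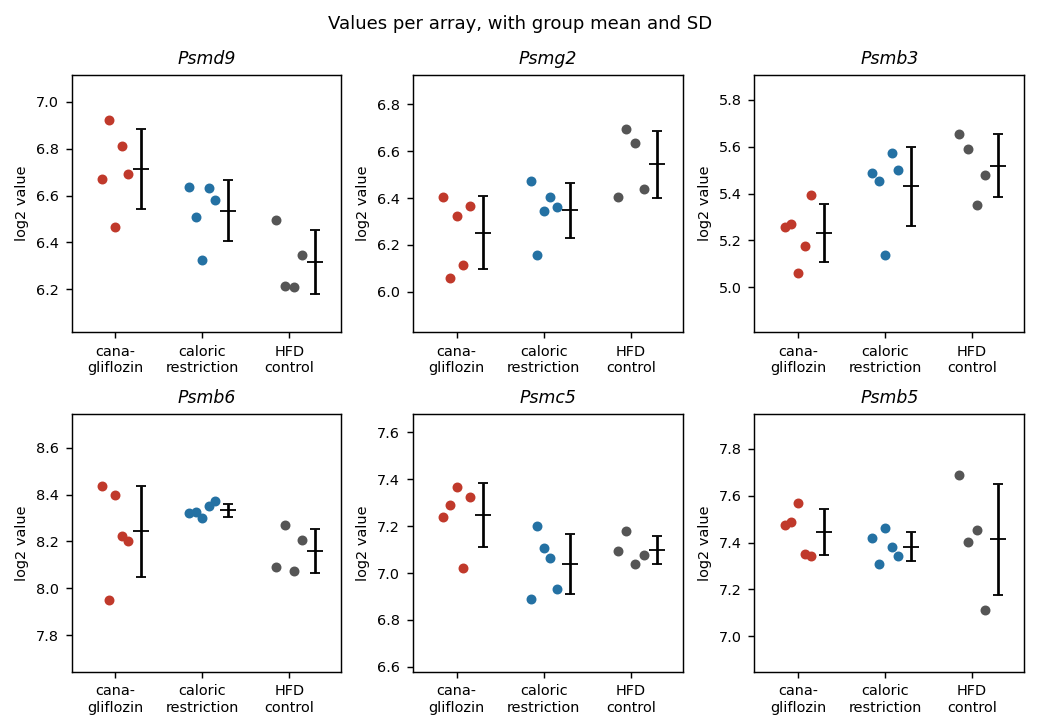
Log2 values per array (points) for 6 proteasome genes, with group mean and SD (bars; n = 5 canagliflozin, 5 caloric restriction, 4 HFD control), all panels spanning the same log2 range on axes that do not start at 0. Psmg2 separates canagliflozin from HFD control and Psmb6 separates caloric restriction from it, while the other 4 genes overlap between canagliflozin and HFD control.

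The α ring showed no shared direction. Under canagliflozin 4 of 7 genes had higher means and 3 lower, with a median of 0.00 and a range of -0.07 to 0.17. Under restriction the counts were also 4 and 3 (median 0.01, range -0.10 to 0.16). Over all genes, 49.7% and 50.5% had higher means in these comparisons. Psma6 had the smallest p between the treated arms. It measured 8.13, 8.16, 7.92, 7.96 and 8.18 under canagliflozin, 7.75, 8.09, 8.02, 7.86 and 7.75 under caloric restriction and 7.88, 8.15, 7.89 and 7.85 in HFD controls. In 3 of 5 drug-treated mice it was above every restricted mouse, and the controls overlapped both arms (0.18 ± 0.10 between the arms, limma adjusted p = 0.828). Psma8, the testis-specific counterpart of Psma7, had dim values of 3.96, 4.28, 4.17, 4.18 and 4.21 under canagliflozin, 3.96, 3.84, 4.20, 4.19 and 4.00 under caloric restriction and 3.64, 4.06, 3.82 and 4.43 in HFD controls. The controls alone spanned the range of both other groups, and the drug difference was 0.17 ± 0.13. Psma5 measured 4.29, 4.25, 4.00, 4.40 and 4.35 under canagliflozin, 4.62, 4.40, 4.52, 4.20 and 4.32 under caloric restriction and 4.23, 4.32, 4.06 and 4.41 in HFD controls. All groups overlapped, restriction differing from control by 0.16 ± 0.11. This gene has a second, dimmer probe set that differed by -0.33 under canagliflozin and -0.14 under restriction, against 0.00 and 0.16 on the brighter one, so its direction is not settled. Psma1, Psma2, Psma3 and Psma7 lay between -0.07 and 0.05 under the drug and between -0.10 and 0.02 under restriction.

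The ATPases, which unfold substrates, had mostly lower means under restriction than in the other groups. Restriction had lower means than control in 5 of 6 genes (median -0.09). Canagliflozin had higher means than control in 4 of 6 (median 0.01), and 5 of 6 were higher under the drug than under restriction (median 0.13). Over all genes, 50.5%, 49.7% and 49% had higher means in these comparisons. The 6 genes varied together (median correlation 0.50), so the counts are not separate observations. Per array, their median deviation from their own means overlapped between groups. It ran from -0.12 to 0.03 under restriction, -0.10 to 0.10 under the drug and -0.14 to 0.25 in controls, where replicate 2 gave the 0.25. Psmc5 measured 7.24, 7.29, 7.37, 7.02 and 7.32 under canagliflozin, 6.89, 7.20, 7.11, 7.07 and 6.93 under caloric restriction and 7.09, 7.18, 7.04 and 7.08 in HFD controls. The drug-treated mice lay above every restricted mouse in 4 of 5 cases, and replicate 4 fell within the restricted range. Psmc2 measured 8.16, 8.21, 8.30, 8.02 and 8.21 under canagliflozin, 8.03, 8.14, 7.92, 8.09 and 7.93 under caloric restriction and 8.32, 8.41, 8.05 and 8.0 in HFD controls. Restricted replicates 3 and 5 were below every other array, and the remaining restricted mice overlapped both groups. Restriction differed from control by -0.17 ± 0.10, and the drug arm differed from restriction by 0.15 ± 0.09 (limma adjusted p = 0.999 and 0.856). Its second probe set, at a mean of 5.03, differed by 0.00 and -0.02 in these comparisons. Psmc1 and Psmc6 differed by 0.14 ± 0.09 and 0.13 ± 0.11 between drug and restriction, while Psmc3 (-0.03 ± 0.08) and Psmc4 (0.04 ± 0.11) differed less. Of these 6 genes 1 had an unadjusted p under 0.05 between the treated arms, as did 6.05% of all genes, and none of the 6 passed the threshold.

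The 11 other subunits of the regulatory particle differed by -0.12 to 0.14 in the drug comparison. Of these, 6 had higher and 5 lower means (49.7% of all genes had higher ones). Psmd4, a ubiquitin receptor, measured 7.89, 7.86, 7.84, 7.85 and 7.75 under canagliflozin, 7.83, 7.93, 7.87, 7.85 and 7.85 under caloric restriction and 7.84, 8.0, 7.87 and 7.45 in HFD controls. Apart from control replicate 4, which was lower, the arrays were nearly level (0.05 ± 0.10 under the drug and 0.08 ± 0.10 under restriction). Psmd14, the enzyme that removes ubiquitin chains before entry, measured 6.09, 6.06, 6.25, 5.87 and 6.68 under canagliflozin, 5.92, 6.27, 6.00, 6.32 and 6.02 under caloric restriction and 6.16, 6.32, 6.03 and 6.21 in HFD controls. Canagliflozin replicate 5 was the highest and replicate 4 the lowest, so the drug arm enclosed the other groups and the difference was 0.01 ± 0.14. Psmd13 measured 7.19, 7.34, 7.20, 6.98 and 7.15 under canagliflozin, 7.08, 7.01, 7.06, 6.90 and 6.88 under caloric restriction and 7.21, 7.08, 6.98 and 6.87 in HFD controls. In 4 of 5 drug-treated mice it was above all restricted mice, and the controls spanned the whole restricted range (0.19 ± 0.09, limma adjusted p = 0.828). Psmd6 measured 7.59, 7.51, 7.61, 7.33 and 7.66 under canagliflozin, 7.45, 7.61, 7.22, 7.42 and 7.50 under caloric restriction and 7.69, 7.89, 7.38 and 7.33 in HFD controls. Restriction differed from control by -0.13 ± 0.12 with overlap, and control replicate 2 was the highest of all arrays. Psmd1 and Psmd2, the large scaffold subunits, differed by 0.02 ± 0.10 and -0.12 ± 0.09 under the drug. Psmd11, a subunit whose increase is known to raise proteasome activity in human embryonic stem cells, differed by 0.00 ± 0.09 under the drug and -0.04 ± 0.09 under restriction, with intervals of -0.18 to 0.19 and -0.22 to 0.15.

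**Figure D3:**
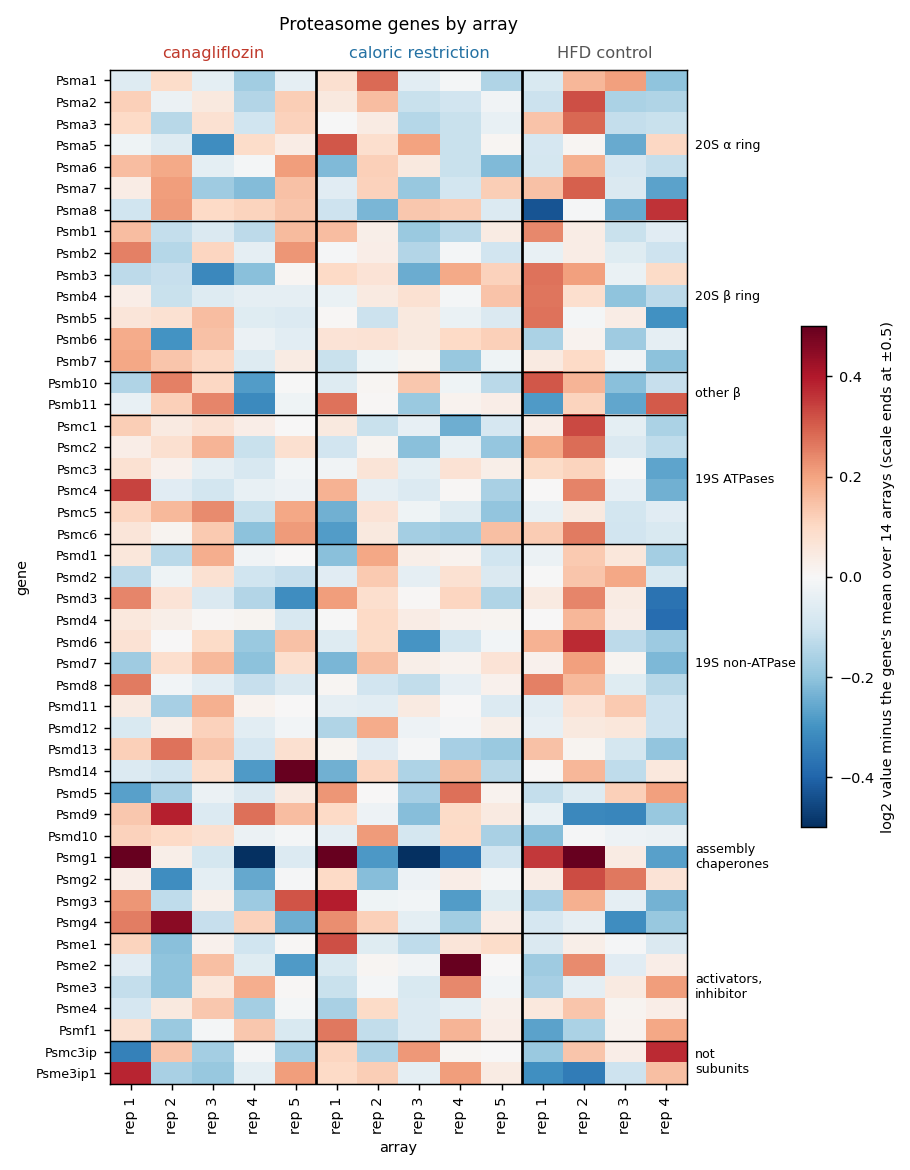
Log2 values of the 47 proteasome genes on each array as differences from the gene's mean over 14 arrays (colour, ending at 0.5 log2 units either way), genes grouped by role and arrays by group. HFD control replicate 2 is red in most subunit genes and HFD control replicate 4 and canagliflozin replicate 4 are mostly blue, while no group has 1 colour throughout.

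Assembly chaperones held the largest differences from control in both arms. Psmd9, which escorts ATPases into the base of the regulatory particle, measured 6.67, 6.92, 6.47, 6.81 and 6.69 under canagliflozin, 6.64, 6.51, 6.32, 6.63 and 6.58 under caloric restriction and 6.50, 6.21, 6.21 and 6.35 in HFD controls. In the drug arm 4 of 5 mice were above all controls, and replicate 3 overlapped the highest control. In the restricted arm 4 of 5 mice were also above all controls. Means were 6.71 ± 0.17 under canagliflozin (SD, n = 5), 6.54 ± 0.13 under restriction (n = 5) and 6.32 ± 0.14 in controls (n = 4). The drug arm was 1.32-fold and the restricted arm 1.16-fold above control, and the treated arms differed from each other by 0.18 ± 0.10 (limma adjusted p = 0.559, 0.999 and 0.835). Its rank by p was 50 among 22180 genes in the drug comparison.

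Psmg2, which with Psmg1 forms a chaperone pair that starts the α ring, measured 6.40, 6.06, 6.32, 6.11 and 6.37 under canagliflozin, 6.47, 6.16, 6.34, 6.40 and 6.36 under caloric restriction and 6.41, 6.70, 6.63 and 6.44 in HFD controls. All drug-treated mice were below all controls, the closest pair being 6.40 and 6.41, and 4 of 5 restricted mice were below them too. The differences were -0.29 ± 0.10 and -0.20 ± 0.10 (limma adjusted p = 0.637 and 0.999). A second probe set with a mean of 2.77 differed by 0.01 and 0.09. Its partner Psmg1 measured 7.94, 7.19, 7.08, 6.61 and 7.10 under canagliflozin, 7.77, 6.87, 6.51, 6.81 and 7.07 under caloric restriction and 7.52, 7.73, 7.20 and 6.89 in HFD controls. Values differed by over 1 log2 unit within each treated group, and replicate 1 was the highest of both. The residual SD of Psmg1 was 0.448, the highest of the 47 genes, whose median was 0.145 (0.178 over all genes). Psmg4, from the second chaperone pair, had higher means under the drug (0.25 ± 0.13) and restriction (0.19 ± 0.13) at dim values, and its partner Psmg3 differed by 0.12 ± 0.14 and 0.07 ± 0.14. Psmd5 and Psmd10, the other chaperones of the base, differed by -0.13 ± 0.11 and 0.12 ± 0.09 under the drug.

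The alternative caps and the inhibitor were near control levels. Psme1, a subunit of the interferon-induced cap, measured 9.18, 8.86, 9.09, 8.97 and 9.08 under canagliflozin, 9.39, 9.01, 8.94, 9.13 and 9.16 under caloric restriction and 9.0, 9.10, 9.07 and 9.0 in HFD controls. Restricted replicate 1 was the highest array and the groups overlapped (0.00 ± 0.10 under the drug and 0.09 ± 0.10 under restriction). Psme2, its partner, measured 5.43, 5.28, 5.63, 5.42 and 5.20 under canagliflozin, 5.41, 5.50, 5.47, 5.99 and 5.49 under caloric restriction and 5.31, 5.72, 5.43 and 5.52 in HFD controls. Restricted replicate 4 stood above every other array. The drug differed from control by -0.10 ± 0.13, but a probe set shared with 2 other symbols differed by 0.10, so the direction is not settled. Psme4, a cap found in nuclei and testis, measured 8.38, 8.51, 8.60, 8.30 and 8.45 under canagliflozin, 8.31, 8.56, 8.40, 8.42 and 8.49 under caloric restriction and 8.52, 8.60, 8.48 and 8.5 in HFD controls. The controls were the tightest group, and the drug and restriction differed from them by -0.08 ± 0.09 and -0.09 ± 0.09. Psme3, the nuclear cap, differed by -0.03 ± 0.11 and 0.00 ± 0.11, and Psmf1, which inhibits the core in vitro, by 0.04 ± 0.11 and 0.11 ± 0.11.

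Psmc3ip, which acts in meiotic recombination, measured 4.10, 4.57, 4.27, 4.43 and 4.27 under canagliflozin, 4.54, 4.28, 4.65, 4.45 and 4.44 under caloric restriction and 4.25, 4.58, 4.47 and 4.81 in HFD controls. The groups overlapped, with a drug difference of -0.20 ± 0.12. Psme3ip1, a nuclear protein that binds the Psme3 cap, measured 8.33, 7.78, 7.76, 7.90 and 8.15 under canagliflozin, 8.05, 8.07, 7.90, 8.15 and 7.99 under caloric restriction and 7.64, 7.60, 7.84 and 8.10 in HFD controls. Control replicates 1 and 2 were the lowest arrays. The drug and restriction means exceeded the control mean by 0.19 ± 0.13 and 0.24 ± 0.13, with overlap in both cases. Without these 2 genes the medians of the remaining 45 were 0.00, -0.01 and 0.03 in the 3 comparisons, and the counts at an unadjusted p under 0.05 were again 3, 0 and 1.

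Across mice, the proteasome genes had mostly weak correlations with each other, more of them positive than negative. With group means removed, the median Pearson correlation over the 14 arrays was 0.16 for the 1081 pairs of members, and 65.2% of pairs were above 0. Between members and all other genes the median was 0.00. Such a median lay near 0 for every member, also for Psmf1 and Psme3. It therefore cannot show that covariation is particular to this group, and no other gene group was compared. Correlations were highest among the ATPases (median 0.50 over 15 pairs), between ATPases and other regulatory subunits (0.48 over 66 pairs), between ATPases and the α ring (0.41 over 42 pairs) and among those other regulatory subunits (0.41 over 55 pairs). They reached 0.24 within the α ring and 0.23 within the β ring (21 pairs each). Pairs of assembly chaperones had a median of 0.06, and activators and inhibitor paired with ATPases 0.00. By gene, Psmc2 had the highest median correlation with the other members (0.45), followed by Psmd6 (0.43), Psma2 (0.42), Psmb7 (0.40) and Psmc3 (0.40). Psmd9, with the largest drug difference, was at -0.11, and Psmf1 and Psme3 were both at -0.28. These figures rest on 11 residual degrees of freedom, and genes share arrays and RMA scaling, so they describe these mice only.

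**Figure D4:**
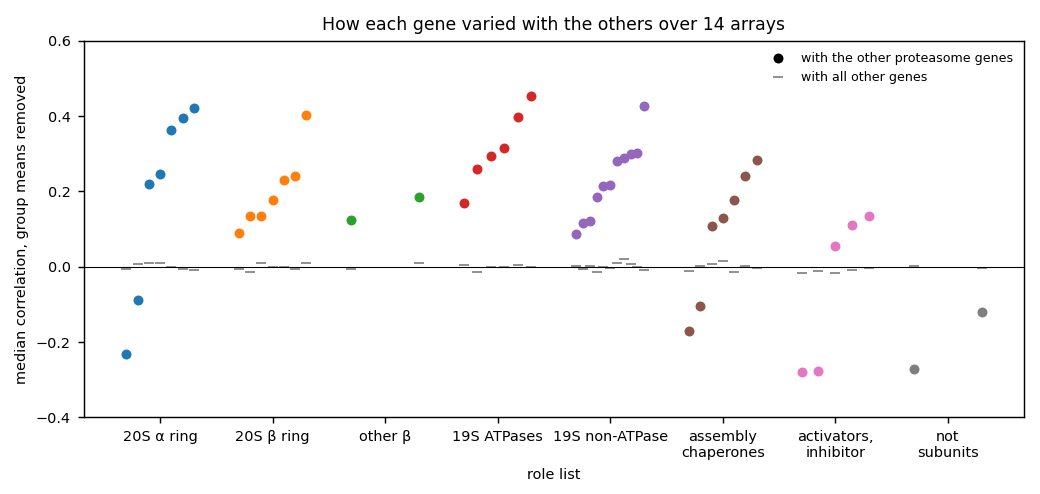
Median Pearson correlation of each proteasome gene with the other 46 (points) and with all other genes (dashes), over 14 arrays with group means removed, by role list. The 6 ATPases and the 11 other subunits of the regulatory particle are all above 0, while 2 of 7 assembly chaperones and 2 of 5 activators and inhibitors are below it. Psma5 and Psma8 of the α ring and the non-subunits Psmc3ip and Psme3ip1 are also below 0.

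The arrays differed in how many of the 47 genes lay above their means, and the same share over all genes was not computed. HFD control replicate 2 had 38 of 47 genes above their mean over all arrays (median deviation 0.14), while HFD control replicate 4 had 13 (-0.11) and canagliflozin replicate 4 had 9 (-0.08). Canagliflozin replicate 1 had 32 and caloric restriction replicate 3 had 14, so the counts were graded. The median deviation averaged 0.01 ± 0.06 under canagliflozin (SD, n = 5), -0.01 ± 0.03 under caloric restriction (n = 5) and -0.01 ± 0.11 in HFD controls (n = 4). The group means thus differed by less than the spread between mice of a group. For the ATPases the medians of the 4 control arrays ran from -0.14 to 0.25, wider than the -0.10 to 0.10 under canagliflozin and the -0.12 to 0.03 under restriction. Without HFD control replicate 2 the median difference over the 47 genes was 0.05 for the drug and 0.02 for restriction, and without HFD control replicate 4 it was -0.05 and -0.07.

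**Figure D5:**
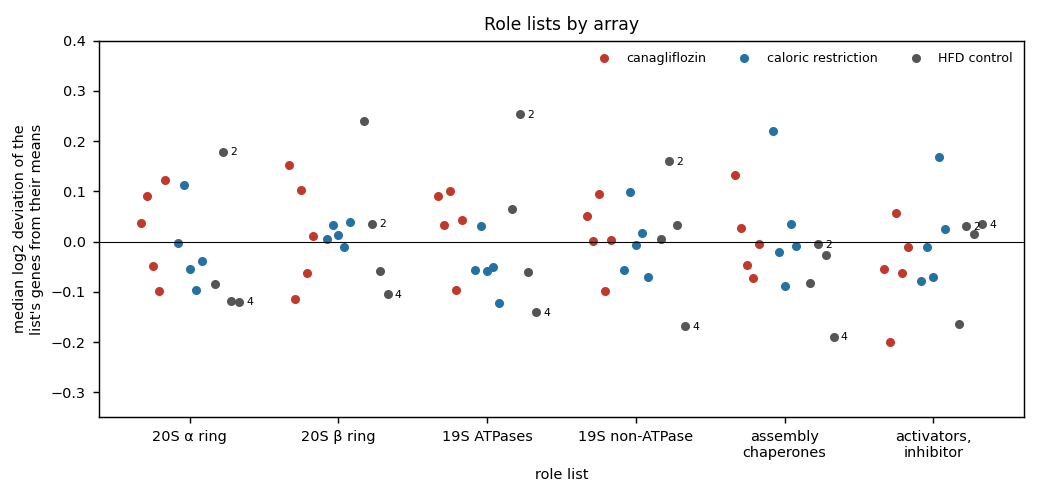
Median log2 deviation of the genes of 6 role lists from their means over 14 arrays, 1 point per array, with canagliflozin left, caloric restriction in the middle and HFD control right within each list, and HFD control replicates 2 and 4 numbered. The groups overlap in every list, and HFD control replicate 2 is the highest array of the α ring, the ATPases and the other regulatory subunits.

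Genes that work beside the proteasome were also near control levels. The 10 measured partners outside the naming rule included the chaperone Pomp, the ubiquitin-cleaving enzyme Usp14 and Akirin2, which carries proteasomes into the nucleus. Of these, 6 had higher means under the drug and 3 under restriction (49.7% and 50.5% of all genes did). Between the treated arms, 9 of the 10 had higher means under the drug, against 49% of all genes. None had an unadjusted p under 0.05 in any comparison. Pomp measured 8.30 ± 0.17 under the drug (SD, n = 5), 8.24 ± 0.14 under restriction (n = 5) and 8.35 ± 0.15 in controls (n = 4). Of 11 measured shuttle factors and members of the p97 complex, which extracts ubiquitinated proteins, 6 were higher under the drug and 3 under restriction. Between the treated arms 6 were higher under the drug. None of the 11 had an unadjusted p under 0.05 in any comparison. Ufd1, an adaptor of p97, differed by 0.16 ± 0.09 under the drug and 0.18 ± 0.09 under restriction. The measured E1 enzymes Uba3, Uba6 and Uba7, which activate ubiquitin or ubiquitin-like proteins, differed by 0.11 ± 0.10, -0.01 ± 0.10 and 0.14 ± 0.15 under the drug.

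Nfe2l1, the gene of NRF1, was the regulator with the smallest p for the drug among 14 measured. Of the 14, 9 had higher means under the drug, against 49.7% of all genes. Nfe2l1 measured 7.54, 7.56, 7.50, 7.68 and 7.35 under canagliflozin, 7.29, 7.39, 7.15, 7.35 and 7.57 under caloric restriction and 7.13, 7.22, 7.55 and 7.31 in HFD controls. In all, 2 of 5 drug-treated mice were above all controls, and the difference was 0.22 ± 0.11 against control, 0.05 ± 0.11 for restriction and 0.18 ± 0.10 between the arms (limma adjusted p = 0.771, 0.999 and 0.835). NRF1 is controlled largely by processing of the protein, which arrays do not measure. Nfe2l2, encoding the related factor NRF2, differed by -0.14 ± 0.11 under the drug. Of 11 measured genes that respond to these factors, 6 were higher under the drug, against 49.7% of all genes. An unadjusted p under 0.05 was found for 1 of the 11, Hmox1, and for 6.51% of all genes. Hmox1, a haem-degrading enzyme, differed by 0.61 ± 0.20 and Gclc, of glutathione synthesis, by -0.28 ± 0.16 (limma adjusted p = 0.596 and 0.812).

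Genes that send proteins from the endoplasmic reticulum to the proteasome had mostly lower means in both arms. Of 15 measured, 11 had lower means under the drug (median -0.10) and 11 under restriction (median -0.09), against shared controls, and 3 and 1 of them had an unadjusted p under 0.05, with none past the threshold. Over all genes, 49.7% and 50.5% had higher means in these comparisons, and 6.51% and 3.93% had such a p. Derl3, a channel component of this route, measured 6.00, 5.61, 5.71, 4.76 and 5.57 under canagliflozin, 5.46, 6.88, 6.58, 6.45 and 4.99 under caloric restriction and 6.53, 6.90, 6.81 and 7.18 in HFD controls. All drug-treated mice were below all controls, as were 3 of 5 restricted mice. It was 2.50-fold lower under the drug (-1.32 ± 0.32) and 1.72-fold lower under restriction (-0.78 ± 0.32), with limma adjusted p of 0.559 and 0.999. Derl1 and Derl2 differed by -0.23 ± 0.10 and -0.24 ± 0.11 under the drug. The proteasome genes had a median of 0.00 on the same arrays, and whether the lists differ was not tested.

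Interferon, which induces Psmb10, Psme1 and Psme2, also induces a wider set of genes. Of 17 measured, 12 had lower means under the drug (median -0.08) and 13 under restriction (median -0.14), against the same 4 controls. An unadjusted p under 0.05 was found for 1 gene in each comparison, and none passed the threshold. The shares over all genes were those given for the preceding list. Stat2, a signal carrier of interferon, differed by -0.36 ± 0.17 under the drug, and Irf9, its partner, by -0.22 ± 0.10 under restriction. Tap1, the peptide transporter that feeds antigen presentation, differed by -0.17 ± 0.10 and -0.18 ± 0.10. Among the members, Psmb10 differed by -0.06 ± 0.12 and -0.06 ± 0.12, Psme1 by 0.00 ± 0.10 and 0.09 ± 0.10, and Psme2 by -0.10 ± 0.13 and 0.07 ± 0.13. Under restriction Psme1 and Psme2 thus had higher means and Psmb10 a lower one, each by less than its standard error. The probe set that Psme2 shares with 2 other symbols differed by -0.01 under restriction, so the direction of Psme2 is not settled there either.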

How the data were processed

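Liver total RNA (250 ng per array, 14 arrays) was labelled by the Affymetrix WT Plus protocol, per the labels' protocols. The values the authors deposited are on a log2 scale. RMA and Expression Console (Affymetrix) are named in the submitters' processing notes, with neither a version nor a genome build in what was used here. Doses are 25 to 30 mg/kg in the treatment protocol, against 30 mg/kg on each sample. Of 41345 probe sets, 23521 had 1 symbol, 1814 several and 16010 no entry. Of the 23521, 23328 had a gene identifier in a RefSeq table, and 0 had another symbol there. Genes with several probe sets (1082 genes, 3 of them members) were taken at the highest mean, giving 22180 genes, all tested.

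A model with 3 group means was fitted across the 14 arrays (limma 3.58.1, lmFit and eBayes; R 4.3.3), with Benjamini-Hochberg adjustment over all genes at 0.05. Errors of differences are standard errors of that fit. Members and lists were chosen with earlier results of these data known. Values per array are given for the member with the smallest p in each role list and comparison, for 8 members fixed by function, and for Psmg1 and Psmg2, chosen after their values were seen. Pathway genes were named by smallest p or fixed by name. Alternatives were a fit of the 2 groups compared, a filter at a mean of 5, median centring, cyclic loess, trended and robust variance, array weights, the mean of probe sets, a block for replicate number, position in the deposited order, and leaving out each array. Psmb8 and Psmb9 were not analysed here.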

Additional observations from a re-analysis of the deposited data

Results flagged for a closer look

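In 8 of 141 combinations of a gene and a group, 1 array lay apart from the others of its group by Dixon's criterion, and chance alone gives about 7.05. In HFD controls, replicate 2 was highest for Psma2 (8.23, next 7.80) and Psma6 (8.15, next 7.89), and replicate 1 was lowest for Psmd10 (5.84, next 6.02). Under canagliflozin, replicate 1 was highest for Psmc4 (9.07, next 8.70) and Psmd8 (9.33, next 9.06). Under caloric restriction, replicate 4 was highest for Psme2 (5.99, next 5.50) and Psme3 (7.14, next 6.89), and replicate 3 was lowest for Psmb3 (5.14, next 5.45). HFD control replicate 2 was also the array with the most members above their means, 38 of 47.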

How the results depend on the processing

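Under 9 other settings and 14 fits that each left out 1 array, the number of proteasome genes past the threshold was 0 in all 3 comparisons. Over all genes that number was 0 to 1, 0 to 1 and 0 to 2 under the 9 settings. It was 0 to 12, 0 and 0 to 16 without 1 array, so few genes of any kind passed. The smallest adjusted p of any member was 0.157 for canagliflozin against HFD control, 0.976 for caloric restriction against it and 0.669 between the treated arms. The median difference over the members stayed between -0.01 and 0.02, between -0.02 and 0.00 and between 0.00 and 0.02 under the 9 settings, and between -0.05 and 0.05, -0.07 and 0.02 and 0.00 and 0.05 when 1 array was left out. With an unadjusted p under 0.05 there were 3, 0 and 1 members. These counts ranged from 2 to 4, 0 to 1 and 1 to 3 under the 9 settings, and from 3 to 5, 0 to 2 and 0 to 3 without 1 array. Over all genes the shares were 6.19 to 7.39%, 3.22 to 4.57% and 5.62 to 6.84% under the 9 settings, and 5.65 to 7.44%, 3.10 to 4.52% and 5.49 to 7.02% without 1 array. Some counts were over 1.5 times the main ones. Without HFD control replicate 4 there were 5 for the drug (10.6% against 5.73% of all genes) and 2 for restriction (4.26% against 4.44%). Without HFD control replicate 1 there were 2 for restriction (4.26% against 3.58%). Between the treated arms there were 3 without caloric restriction replicate 3 (6.38% against 5.49%). There were 2 there without caloric restriction replicate 2 (4.26% against 5.87%) or canagliflozin replicate 4 (4.26% against 5.82%). The count between these arms was 0 without canagliflozin replicate 2 (5.82% of all genes) or caloric restriction replicate 5 (6.37%). For restriction against control, 1 member passed p of 0.05 without canagliflozin replicate 2 or 3 or caloric restriction replicate 1 or 3. That is 2.13%, against 3.94 to 4.35% of all genes. The count was also 1 under 6 of the 9 settings (2.13 to 2.38%, against 3.22 to 4.57%). The filter at a mean of 5 and the trended variance gave 2 between the treated arms (4.76% against 6.84%, and 4.26% against 5.89%). The replicate number as a block gave 4, 1 and 3 members, none past the adjusted threshold. Those are 8.51%, 2.13% and 6.38%, against 6.31%, 4.39% and 6.74% of all genes. The labels do not say that a number marks a shared batch, and 3 of 13 same-numbered pairs correlated above 0.1 in their deviations. These correlations ranged from -0.09 to 0.20 with a median of 0.05, against -0.02 for other arrays of different groups, and 5 of 14 arrays correlated best with their own number. Differences of single genes changed sign in at least 1 setting for 25, 25 and 17 of the 47 members. No such gene was past the threshold. Psmd9 ranged from 0.34 to 0.46 for the drug against control. Psmg2 was -0.14 for the drug and -0.05 for restriction with the mean of its probe sets, against -0.29 and -0.20. The dim second probe set of Psmg2 sets that shift by construction, and the cause of the others was not tested.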

Other observations

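Probe sets shared with other symbols give further values for this complex. The brighter probe set shared by Psma4, an α ring gene, and another symbol measured 8.44 under canagliflozin, 8.43 under caloric restriction and 8.47 in HFD controls, differences of -0.03 and -0.04 from the controls. A probe set shared by Armc9 and Psmd1 had a mean of 4.45 and differed by -0.08 and -0.14, against 0.02 ± 0.10 and -0.01 ± 0.10 on the probe set of Psmd1 alone. Of 6 measured ubiquitin ligases known from muscle atrophy, 5 had higher means under canagliflozin and 5 under restriction, against the same controls (49.7% and 50.5% of all genes did). Cblb, which tags receptors for degradation, differed by 0.42 ± 0.16 under the drug (limma adjusted p = 0.692), with 4 of 5 mice above all controls, and Fbxo21, the substrate-binding part of another ligase, by 0.21 ± 0.20.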
